A study of Mus musculus with 6 samples.

Results

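The 35 genes described here encode chains of laminin, other proteins of the basement membrane, the integrins and dystroglycan that bind them at the cell surface, and proteins that couple integrins to the cell interior. They were taken by gene family and name, a rule that uses no measured value though it was set with earlier results of these data known, and all 35 were found among the 52609 annotated genes of the deposited files. RNA with a poly(A) tail was sequenced from mouse epiblast stem cells, primed pluripotent cells that are derived from the postimplantation epiblast. The 6 libraries form 2 groups of 3, one grown with Activin A at 20 ng/mL and one from which it was left out. Every library of both groups came from cells kept in knockout serum replacement on inactivated embryonic fibroblasts, with FGF2 at 10 ng/mL, the Wnt secretion inhibitor IWP2 at 5 µM and SB431542 at 2 µM. SB431542 blocks the type I receptors through which Activin, Nodal and TGF-beta signal, so both groups carried that inhibitor. By its title, the series asks how Activin A bears on the ectoderm fate of these cells.

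The series' design text speaks of 2 lines in 3 replicates each, whereas the sample labels separate the groups by Activin A alone, so a difference between lines cannot be told apart from Activin A. Replicate 1 without Activin A is listed with Activin A among its growth factors, against its title and genotype. The sources do not say that replicates are separate cultures, so each p-value measures only the spread between these libraries, which may be technical. Depth ran from 9946521 to 16350923 estimated reads per library in the group with Activin A, whose replicate 3 was the shallowest, and from 13567995 to 14992042 in the other. Epiblast markers fell in 8 of 10 tested cases, while Sox2 rose by 0.41 on the log2 scale and Pou3f1 was not called. The summed TPM of these 10 markers ran from 681 to 703 with Activin A and from 302 to 324 without. TPM is a level scaled by transcript length and to the same total in every library. All 10 were detected. Fibroblast markers, which the feeder cells express, were all detected too, at a summed TPM of 147 to 188 with Activin A and 199 to 202 without. Of their 17 tested genes 3 rose and 7 fell. Of the muscle and cardiac markers 4 of 5 tested rose, and their summed TPM was 41.9 to 44.3 with and 74.9 to 77.7 without Activin A. Over all tested genes 14% rose and 15.2% fell. Markers of extraembryonic endoderm, a tissue that secretes much laminin, summed to only 7.82 to 8.44 TPM with and 8.04 to 9.81 TPM without Activin A, 7 of 12 had too few reads for a test, and Ttr was at 0 in every library. The part of these other cell types in the results below was not tested, and in bulk RNA fewer cells of a type and less RNA per cell cannot be told apart.

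A laminin is a trimer of 1 alpha, 1 beta and 1 gamma chain, and laminins polymerize into the sheet on which epiblast and other epithelia rest. Nidogens bridge this sheet to collagen IV, and the heparan sulfate proteoglycans perlecan (Hspg2) and agrin (Agrn) bind to it. Cells hold the sheet through integrins, which are pairs of 1 alpha and 1 beta subunit, and through dystroglycan (Dag1). Inside the cell, kindlins (Fermt1, Fermt2), integrin-linked kinase (Ilk) and focal adhesion kinase (Ptk2) act at the integrin tails. Contact with laminin is known to polarize the epiblast.

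Most members that changed were higher without Activin A, and most changes were small. Of the 35 members, 33 had enough reads to be tested, and 16 rose and 4 fell at an edgeR adjusted p under 0.05, while 13 did not pass. Over all 15448 tested genes 29.2% passed, 14% higher and 15.2% lower. The median log2 fold change, without minus with Activin A, was 0.18 over the members and 0.0012 over all tested genes. Calls of at least 1.5-fold went to 5 members that rose (Nid2, Dag1, Itga8, Itgb3 and Itgb8) and 3 that fell (Lama4, Itgb4 and Fermt1). Over all genes such calls made up 3.58% for rises and 7.06% for falls. The libraries of the groups did not overlap in normalized count for 24 of the 33 members, against 42.9% of all tested genes. With both doubted libraries left out, replicate 3 with and replicate 1 without Activin A, 15 members rose and 3 fell, and 32% of all genes passed.

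Levels below are in CPM, estimated reads scaled to a common library size with TMM factors, and are given for replicates 1 to 3 of each group in turn. The scale leaves transcript length aside, so it compares libraries and not genes.

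**Figure D1:**
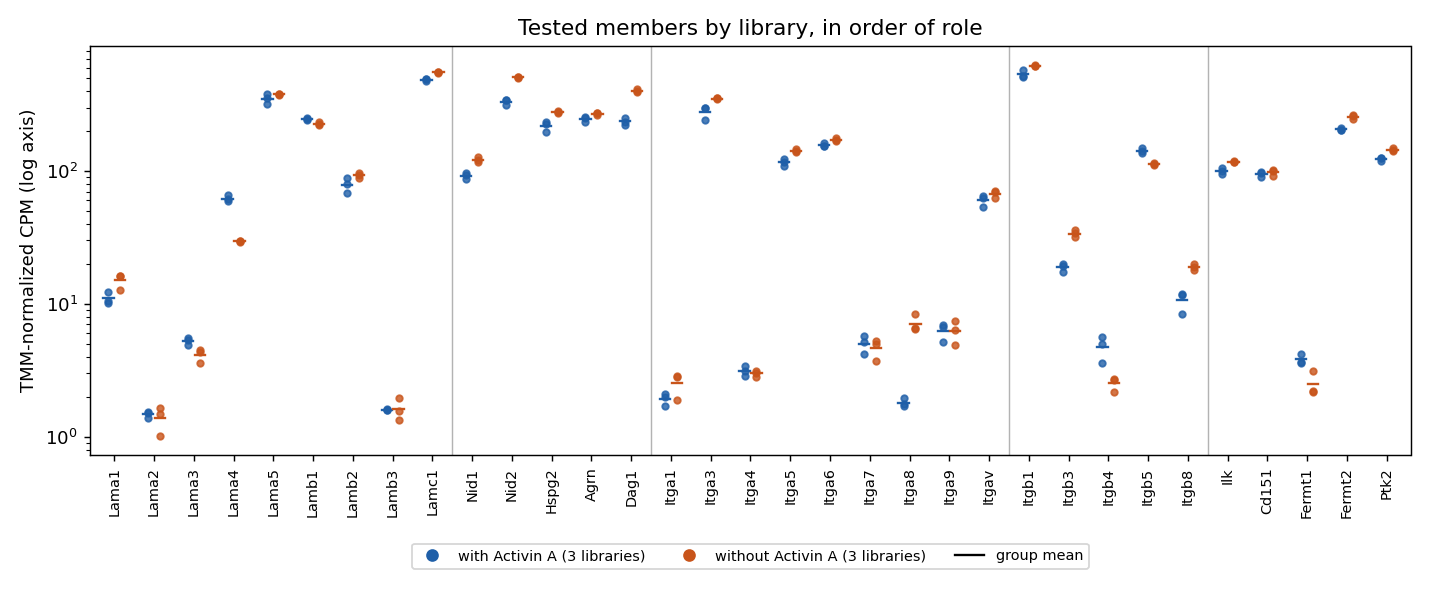
The vertical axis gives TMM-normalized CPM on a log scale for the 33 tested members, with laminin chains, nidogens with proteoglycans and dystroglycan, alpha integrins, beta integrins and other partners from left to right. Each point is 1 library, blue with and orange without Activin A, and each short line is the mean of 3. The groups stand clear of each other in 24 members, as for Lama4 (59.1 to 65.5 against 29.1 to 29.8 CPM) and Dag1 (223 to 250.04 against 392 to 417 CPM).

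Among the laminin chains, Lama4 was 2.10-fold lower without Activin A while Lama1, Lamb2 and Lamc1 were slightly higher. Lama4, the alpha chain of laminins in mesenchymal and vascular basement membranes, measured 65.5, 59.1 and 61.5 CPM with Activin A and 29.8, 29.8 and 29.1 CPM without. All libraries with Activin A lay above all libraries without. It fell by 1.07 on the log2 scale (SE 0.06; edgeR adjusted p = 9.77e-09). Lama4 lies on chromosome 10 of GRCm38 at 38965515 to 39110188 on the plus strand. Of the 17 tested fibroblast markers, some of them collagens, 7 fell, 3 rose and 7 did not pass. Col3a1, Dcn, Thy1, Lox and Postn fell by between 0.86 and 1.21 on the log2 scale, and Col6a3 and Mmp2 by 0.27 and 0.26. Col1a1, Col1a2 and Col5a2 rose. Of the endothelial and blood markers, 4 of 7 were tested and 2 rose, Kdr 4.54-fold and Tek 1.58-fold, and the list's summed TPM was 1.79 to 1.91 with and 2.51 to 4.06 without Activin A, with Hbb-bt at 0 in every library.

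Lamc1, the gamma chain shared by most laminins, measured 496, 477 and 489 CPM with Activin A and 552, 551 and 553 CPM without. Its groups did not overlap, and it rose by 0.18 (SE 0.05), or 1.13-fold (edgeR adjusted p = 0.00765). Lama1, the alpha chain of the early embryo's laminin, measured 10.6, 12.3 and 10.2 CPM with Activin A and 16.2, 16.1 and 12.7 CPM without. The third library without Activin A stood nearest to the other group. The rise of Lama1 was 0.44 (SE 0.11), or 1.36-fold (edgeR adjusted p = 0.00916). Its call was lost without replicate 1 of either group or replicate 2 without Activin A, with edgeR adjusted p-values of 0.0560, 0.0539 and 0.0556, and without both doubted libraries (0.0510). Lamb2, the beta chain of adult and synaptic laminins, rose by 0.23 (SE 0.08, edgeR adjusted p = 0.0367). That call was also fragile, since leaving out replicate 2 with Activin A raised the edgeR adjusted p to 0.110 and leaving out a library of the other group raised it to 0.113, 0.132 or 0.0590. Upper-quartile scaling gave 0.0642.

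The other chains did not pass. Lama5, the alpha chain that pairs with Lamb1 and Lamc1 in the embryo's laminin-511, measured 377, 352 and 318 CPM with Activin A and 375, 381 and 380.1 CPM without, and its groups overlapped. Its log2 fold change was 0.12 (SE 0.06, edgeR adjusted p = 0.147), and it passed without replicate 1 with Activin A (0.0486). Lamb1, the partner beta chain, measured 249.9, 242 and 245 CPM against 223, 226 and 232 CPM. Lamb1 was lower in all 3 libraries without Activin A, at a log2 fold change of -0.11 (SE 0.05, edgeR adjusted p = 0.0797). It passed without replicate 3 with Activin A (0.00989), with upper-quartile scaling (0.0267) and after removal of trends on gene length and GC content (0.000342). Lama2, Lama3 and Lamb3, chains of muscle and epidermal laminins, had means of 1.38 to 5.28 CPM in either group and edgeR adjusted p-values of 0.826, 0.103 and 0.988. Lama3 passed as lower after the same removal of trends (0.0348). Lamc3, a gamma chain of few tissues, had only 1 to 6 reads in each library and was not tested.

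Of the nidogens, proteoglycans and dystroglycan, 4 of 5 were called higher in summed counts, 0 lower and Agrn not called. Over all tested genes 14% were called higher and 15.2% lower. The rise of Hspg2 depended on how reads were counted. Dag1 encodes both subunits of dystroglycan, the receptor that binds laminin and links it through dystrophin or utrophin to actin. It measured 250.04, 235 and 223 CPM with Activin A and 392, 417 and 399 CPM without. The lowest library without Activin A stood far above the highest with it. Dag1 rose by 0.77 (SE 0.05), or 1.70-fold (edgeR adjusted p = 5.23e-08). It lies on chromosome 9 at 108204634 to 108263958 on the minus strand.

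Nid2, which encodes nidogen-2, measured 345, 341 and 314 CPM with Activin A and 506, 507 and 507 CPM without. The libraries without Activin A were nearly level with each other and all above the rest. It rose by 0.60 (SE 0.05), or 1.52-fold (edgeR adjusted p = 3.88e-07). Nid2 lies on chromosome 14 at 19751265 to 19811787 on the plus strand, and 8.45% of its exonic bases overlap Rtraf on the other strand. Nid1, which encodes nidogen-1, measured 97.4, 86.6 and 93.2 CPM against 116, 128 and 121 CPM. Its groups did not overlap either, and it rose by 0.39 (SE 0.06), or 1.31-fold (edgeR adjusted p = 0.000147).

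Hspg2 rose by 0.35 (SE 0.06, edgeR adjusted p = 0.000539) in summed counts, but this direction did not hold for the TPM summed over its transcripts. On the log2(TPM + 1) scale the difference was -0.04, and with an offset for mean transcript length the log2 fold change was -0.07 (edgeR adjusted p = 0.739). Its transcript with most reads, Hspg2-203, was higher without Activin A, at 4.88, 4.58 and 4.70 TPM against 7.93, 7.25 and 6.21 TPM, and counting that transcript alone gave 0.58 (SE 0.10, edgeR adjusted p = 0.0103). Agrn had 255.1, 251 and 232 CPM with and 274, 271 and 265 CPM without Activin A, with no overlap, and a log2 fold change of 0.13 (SE 0.05, edgeR adjusted p = 0.0579). It passed without replicate 3 with Activin A (0.0376), with protein-coding genes alone (0.0466) and after removal of trends on gene length and GC content (0.0161). Per length the difference of Agrn was -0.08 on the log2(TPM + 1) scale.

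Splice forms of Nid2 differed in how they moved. Nid2-201, the full-length form, measured 28.4, 27.2 and 30.2 TPM with Activin A and 52.8, 53.3 and 53.5 TPM without. Nid2-203, a form that starts 16972 bases downstream and holds an extra exon, measured 17.2, 16.6 and 14.8 TPM against 13.9, 17.2 and 13.8 TPM. Nid2-201 was thus higher in every library without Activin A, while the groups of Nid2-203 overlapped. Nid2-202, a form of 543 bases that retains an intron, measured 44.7, 37.8 and 40.3 TPM with Activin A and 50.6, 52.3 and 46.8 TPM without, again with no overlap. The share of the gene's estimated reads in Nid2-201 went from 62.2%, 62.5% and 67.0% to 78.1%, 74.9% and 78.7%. Of the 31-base words of Nid2-203, 96.9% also occur in Nid2-201, so the split between the forms rests on 128 words found in Nid2-203 alone and 899 found in Nid2-201 alone. The exon of Nid2-203 is shown because it is coding sequence that Nid2-201 lacks, while Nid2-203 in turn lacks the first exons of Nid2-201. It is exon 15, at chr14:19806512-19806610 on the plus strand of GRCm38, 99 bases or 33 codons long, and in the first line below its bases are in capitals between 25 bases of each neighbouring exon. The second line gives the same junction in Nid2-201, where the exon is skipped. Both were read from the GENCODE M21 transcripts.
Nid2-203: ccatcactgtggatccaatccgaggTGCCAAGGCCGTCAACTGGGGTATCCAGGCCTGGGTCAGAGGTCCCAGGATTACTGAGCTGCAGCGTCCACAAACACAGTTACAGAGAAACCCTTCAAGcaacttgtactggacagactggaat
Nid2-201: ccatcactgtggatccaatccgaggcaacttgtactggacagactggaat

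The alpha integrins included the member with the highest fold change, Itga8, and slight rises of Itga3 and Itga5. Rises were called for 3 of the 9 tested and falls for 0, which leaves 6 with no call, a share near the 29.2% called over all tested genes. Itga8, which pairs with Itgb1 to bind nephronectin and fibronectin, measured 1.96, 1.76 and 1.70 CPM with Activin A and 8.36, 6.53 and 6.43 CPM without. Every library without Activin A held over 3 times the level of any with it. It rose by 1.96 (SE 0.17), or 3.89-fold (edgeR adjusted p = 8.33e-07). These levels rest on few reads, 17 to 118 in each library. Itga8 lies on chromosome 2 at 12106632 to 12301922 on the minus strand, and 5.05% of its exonic bases overlap a gene on the plus strand.

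Itga3, a laminin receptor subunit of epithelia, measured 297, 298 and 244 CPM with Activin A and 354, 347 and 353 CPM without. Its replicate 3 with Activin A stood below the other libraries. Itga3 rose by 0.33 (SE 0.07), or 1.25-fold (edgeR adjusted p = 0.00175). Itga5, the alpha subunit of the fibronectin receptor, measured 124, 117 and 108 CPM against 138, 141 and 146 CPM. The groups did not overlap, and Itga5 rose by 0.28 (SE 0.06), or 1.21-fold (edgeR adjusted p = 0.00174).

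Itga6, the partner of Itgb1 and Itgb4 in laminin binding, measured 154, 154 and 163 CPM with Activin A and 171, 176 and 168 CPM without. It was higher in all 3 libraries without Activin A, yet its log2 fold change of 0.13 (SE 0.05) missed the threshold (edgeR adjusted p = 0.0549). Leaving out replicate 3 with Activin A (0.00196) or both doubted libraries (0.0108) brought it past. So did a fit of protein-coding genes alone (0.0492) and removal of trends on gene length and GC content (0.0157). Itgav, the alpha subunit of the vitronectin receptors, had a log2 fold change of 0.15 (SE 0.07, edgeR adjusted p = 0.134). Itgav likewise passed without replicate 3 with Activin A (0.0258) and after that removal of trends (0.0440). Itga1, Itga4, Itga7 and Itga9 had mean levels between 1.92 and 6.25 CPM and edgeR adjusted p-values of 0.246 to 0.964. Itga2, a collagen receptor subunit, had 1 to 5 reads in each library, too few for a test.

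All 5 beta integrins passed in summed counts, 3 higher and 2 lower, against 14% higher and 15.2% lower over all tested genes. With an offset for mean transcript length, Itgb1, Itgb4 and Itgb5 did not pass. Itgb1, the beta subunit common to most laminin, collagen and fibronectin receptors, rose by 0.21 (SE 0.05), or 1.16-fold (edgeR adjusted p = 0.00745), with 509.9 to 577 CPM with Activin A and 616 to 633 CPM without. Itgb3, a partner of Itgav in the vitronectin receptor, measured 20.1, 17.5 and 19.4 CPM with Activin A and 36.0, 31.7 and 33.9 CPM without. Its groups lay well apart, and it rose by 0.83 (SE 0.08), or 1.78-fold (edgeR adjusted p = 1.87e-06). Itgb3 lies on chromosome 11 at 104608000 to 104670476 on the plus strand.

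Itgb8, which pairs with Itgav to bind latent TGF-beta, measured 11.8, 8.34 and 11.7 CPM with Activin A and 20.1, 18.1 and 19.0 CPM without. Replicate 2 with Activin A was the lowest library of its group. Itgb8 rose by 0.85 (SE 0.12), or 1.80-fold (edgeR adjusted p = 6.78e-05), and limma-trend on log2(TPM + 0.1) gave an adjusted p of 0.0573. It lies on chromosome 12 at 119158022 to 119238802 on the minus strand.

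Itgb5, another partner of Itgav, measured 142, 148 and 136 CPM with Activin A and 110.2, 113 and 115 CPM without. All 3 libraries without Activin A were lower. It fell by 0.33 (SE 0.05), or 1.26-fold (edgeR adjusted p = 0.000221). Of the 31-base words in its transcripts, 7.86% also occur in other genes. Of the beta subunits named above as partners of Itgav, Itgb3 and Itgb8 were thus higher and Itgb5 lower without Activin A in summed counts.

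Itgb4, the partner of Itga6 in hemidesmosomes, measured 5.62, 4.98 and 3.59 CPM with Activin A and 2.69, 2.69 and 2.17 CPM without. The groups were separate but low, at 29 to 92 reads per library. It fell by 0.93 (SE 0.19), or 1.91-fold (edgeR adjusted p = 0.00210). Per length the fall was not seen, with a log2 fold change of -0.09 (SE 0.63, edgeR adjusted p = 0.948) under the length offset and a difference of 0.05 on the log2(TPM + 1) scale. The gene lies on chromosome 11 at 115974709 to 116008412 on the plus strand, and 7.66% of its exonic bases overlap a gene on the other strand.

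Among the proteins that act with integrins, Fermt2, Ptk2 and Ilk rose slightly, Fermt1 fell and the tetraspanin Cd151 did not pass. Fermt2, or kindlin-2, the kindlin of most tissues, measured 204, 204 and 209.5 CPM with Activin A and 247, 258 and 264 CPM without. It rose by 0.31 (SE 0.05), or 1.24-fold (edgeR adjusted p = 0.000156), with no overlap. Ptk2 measured 125, 119 and 126 CPM against 144, 142 and 149 CPM. The groups of Ptk2 were again separate, and it rose by 0.23 (SE 0.05), or 1.17-fold (edgeR adjusted p = 0.00311).

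Ilk measured 99.9, 106 and 95.5 CPM with Activin A and 118, 117 and 118 CPM without. Its rise of 0.23 (SE 0.05), or 1.17-fold (edgeR adjusted p = 0.00518), is uncertain in its source, because 89.7% of its exonic bases lie under exons of Rrp8 and Taf10 on the other strand and use of strand in the counting is not given in the sources used here. In addition, 15.5% of its sequence words occur in other genes. Fermt1, or kindlin-1, the kindlin of epithelia, measured 3.67, 4.17 and 3.59 CPM with Activin A and 2.20, 2.16 and 3.14 CPM without, on 31 to 60 reads per library. The third library without Activin A lay close to the other group. Fermt1 fell by 0.62 (SE 0.19), or 1.53-fold (edgeR adjusted p = 0.0252).

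The fall of Fermt1 did not hold up. It was lost with DESeq2 (adjusted p = 0.193), and in edgeR without replicate 1 or 2 with Activin A (0.0612 and 0.0933), without replicate 1 or 2 of the other group (0.108 and 0.113) and without both doubted libraries (0.0697). With the length offset its sign turned, to 0.65 (SE 0.34, edgeR adjusted p = 0.255). Cd151, a tetraspanin that binds laminin-binding integrins, had 95.5 ± 4.07 CPM with and 97.8 ± 5.53 CPM without Activin A (SD, n = 3 each), and an edgeR adjusted p of 0.730.

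**Figure D2:**
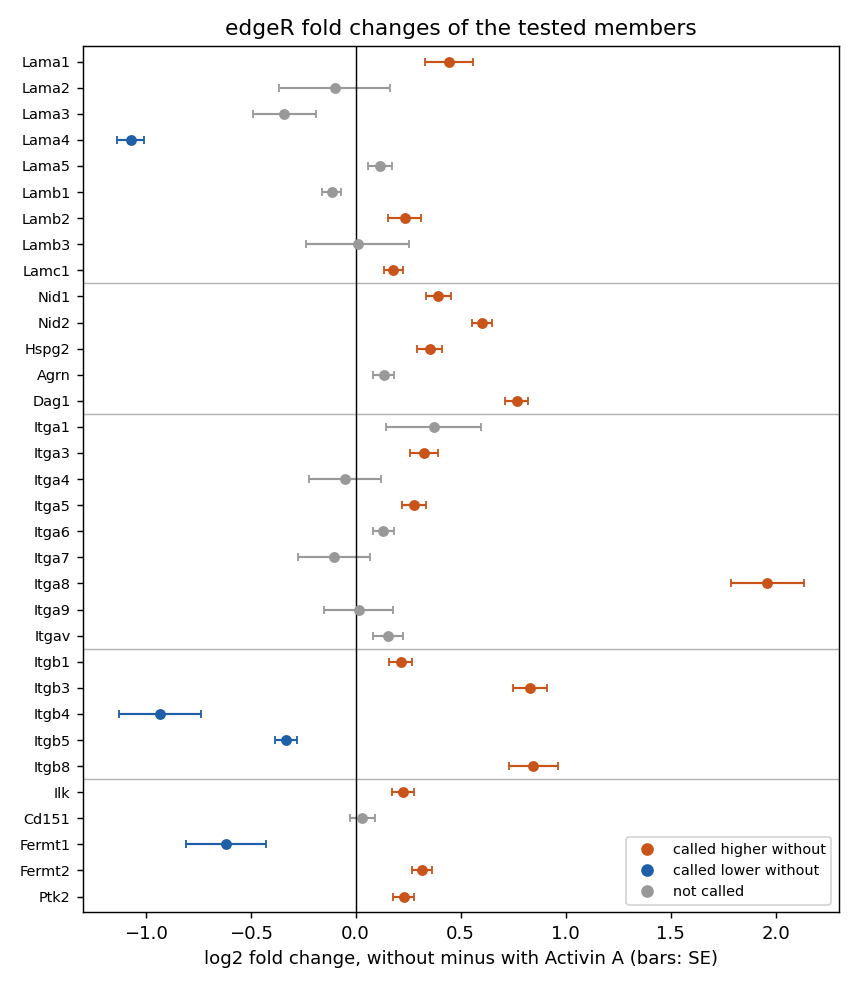
Each point is the edgeR log2 fold change of 1 tested member, without minus with Activin A, and bars show 1 SE on each side. Orange points passed as higher, blue ones as lower and grey ones did not pass. The values run from -1.07 for Lama4 to 1.96 for Itga8, and most of the 16 rises lie under 0.5.

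Promoters are shown for the members that changed by at least 1.5-fold and have an entry in the RefSeq table of GRCm38.p6, since Activin A acts on genes through SMAD factors and their partners. Of 8 such members 4 had an entry: Dag1, Itga8, Itgb8 and Fermt1. Each line gives the 250 bases before the RefSeq start, and capitals mark any match to the 4 motifs searched on both strands. These were CAGAC for SMAD, AATCCACA for FOXH1, GGGCGG for SP1 and KLF factors and TATAAA for the TATA box. The windows are chr9:108263959-108264208, chr2:12301945-12302194, chr12:119238277-119238526 and chr2:132946037-132946286, all on the minus strand. The Itgb8 window lies inside the gene as GENCODE M21 places it, with its start at 119238802, so it is upstream of the RefSeq start only.
Dag1: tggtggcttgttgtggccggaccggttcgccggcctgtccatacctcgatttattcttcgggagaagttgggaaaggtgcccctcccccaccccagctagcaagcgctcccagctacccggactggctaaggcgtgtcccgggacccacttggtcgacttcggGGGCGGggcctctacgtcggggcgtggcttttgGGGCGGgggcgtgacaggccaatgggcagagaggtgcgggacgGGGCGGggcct
Itga8: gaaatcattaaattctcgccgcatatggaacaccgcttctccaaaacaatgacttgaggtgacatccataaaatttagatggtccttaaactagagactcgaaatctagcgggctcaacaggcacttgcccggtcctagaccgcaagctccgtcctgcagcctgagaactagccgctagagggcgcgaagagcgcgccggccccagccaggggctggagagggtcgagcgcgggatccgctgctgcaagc
Itgb8: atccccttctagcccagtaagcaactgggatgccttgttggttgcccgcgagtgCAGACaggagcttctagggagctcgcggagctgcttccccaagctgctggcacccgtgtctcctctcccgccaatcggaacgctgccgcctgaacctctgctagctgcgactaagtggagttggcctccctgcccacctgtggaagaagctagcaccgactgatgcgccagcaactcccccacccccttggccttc
Fermt1: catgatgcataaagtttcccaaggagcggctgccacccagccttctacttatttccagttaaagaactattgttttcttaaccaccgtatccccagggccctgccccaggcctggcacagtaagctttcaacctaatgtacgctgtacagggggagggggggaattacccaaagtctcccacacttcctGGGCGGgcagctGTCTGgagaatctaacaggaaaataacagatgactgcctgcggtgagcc

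The Dag1 window held GGGCGG 3 times, the Itgb8 window CAGAC once, the Fermt1 window GGGCGG once and CAGAC once on the other strand, and the Itga8 window none of the 4. CAGAC occurs in 42.2% and GGGCGG in 32.7% of all 32817 promoters of the table, AATCCACA in 0.719% and TATAAA in 12.4%. Of the 30 promoters of 24 members in the table, 15 held CAGAC, 18 GGGCGG and 0 either of the other motifs. A match is a description of the letters, not of a bound site.

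The way reads were counted mattered for several members. For Lama5, the transcript of 11388 bases (Lama5-201) measured 18.5, 16.5 and 16.9 TPM with Activin A and 19.6, 20.6 and 19.6 TPM without. Its groups did not overlap, and it was higher without Activin A. The 3 short Lama5 transcripts of 451 to 734 bases, annotated as processed transcripts, were lower instead: Lama5-203 measured 30.9, 27.0 and 27.0 TPM against 15.8, 20.5 and 21.8 TPM. With the length offset Lama5 was called lower, by 0.37 on the log2 scale (edgeR adjusted p = 0.0234). After removal of trends on gene length and GC content it was called higher, by 0.13 (edgeR adjusted p = 0.00274). Nearly all of the short forms' sequence words, between 93.1% and 96.2%, also occur in Lama5-201.

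Lamc1 split in a like way. Lamc1-201, the full-length transcript of 7622 bases, measured 37.3, 34.1 and 39.9 TPM with Activin A and 43.3, 45.5 and 44.0 TPM without. The shorter coding form Lamc1-204 measured 19.9, 22.4 and 21.9 TPM against 13.04, 13.2 and 8.44 TPM. The long form was thus higher and the short form lower in every library without Activin A, and the gene's call was lost with the length offset (log2 fold change 0.05, edgeR adjusted p = 0.515). Lamb1-205 was assigned 0, 0 and 0.12 estimated reads with Activin A and 374, 153 and 193 without. Only 88 of its 5527 sequence words are absent from Lamb1-201, so this appearance rests on little sequence.

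For Dag1 and Itgb1 minor transcripts were higher without Activin A, and for Dag1 the main one was too. Dag1-204 went from 26.9, 24.3 and 25.4 TPM to 39.3, 43.8 and 39.5 TPM. Dag1-203 went from 0.38, 0.67 and 0.67 TPM to 2.79, 2.87 and 2.96 TPM, and Dag1-201 from 1.41, 1.03 and 1.80 TPM to 4.19, 4.02 and 4.90 TPM. These 3 transcripts, the ones of Dag1 with most reads, were all higher without Activin A, without overlap. Itgb1-202, annotated as a target of nonsense-mediated decay, went from 8.66, 8.19 and 10.0 TPM to 15.6, 16.8 and 21.2 TPM, while the main form Itgb1-201 overlapped between the groups at 77.2 to 99.6 and 90.7 to 101 TPM.

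**Figure D3:**
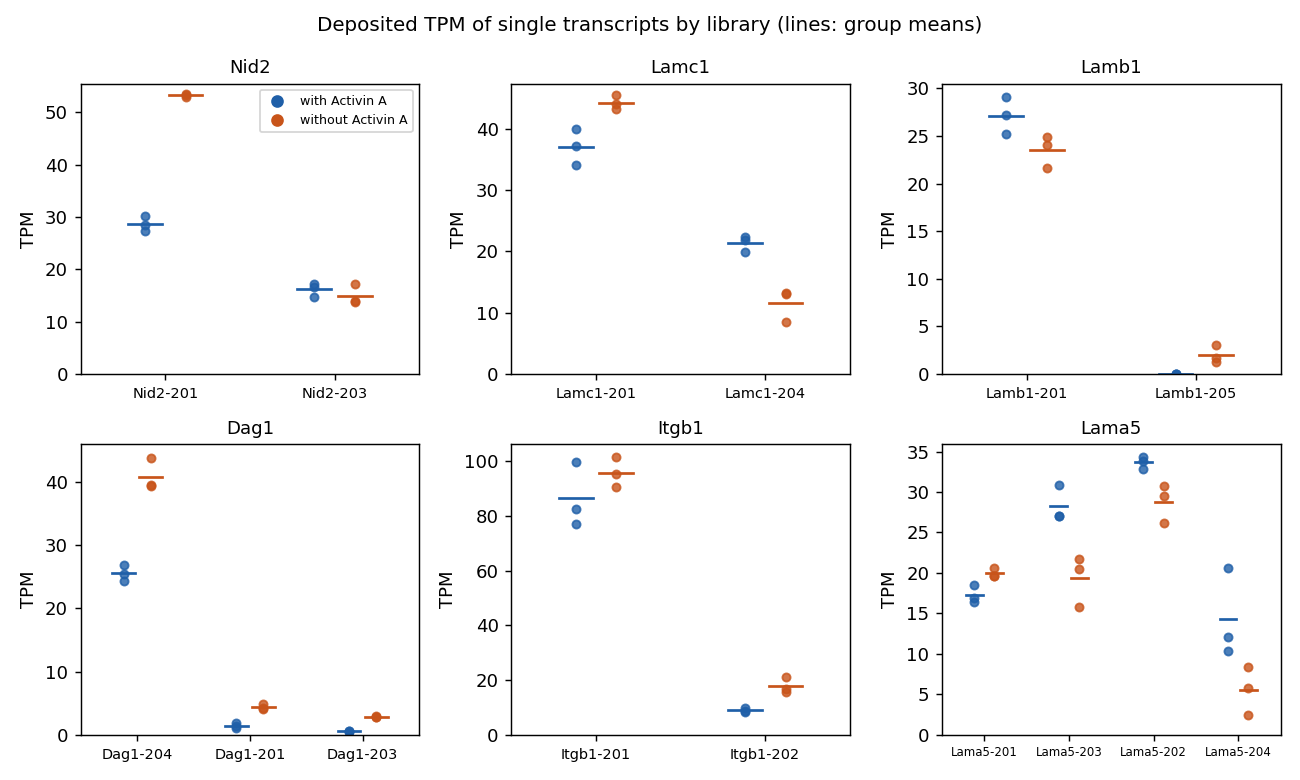
Each panel gives the deposited TPM of single transcripts of 1 member, with 1 point per library, blue with and orange without Activin A, and a line at each mean of 3. Nid2-201, Lamc1-201 and the Dag1 transcripts are higher without Activin A in every library, and Lamc1-204 and Lama5-203 are lower.

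When only the transcript with most reads was counted for each gene, an alternative chosen after seeing the data, 12 members rose and 3 fell, and all genes were called at 12.7%. Itga3 (edgeR adjusted p = 0.0934), Itgb1 (0.181), Ilk (0.214), Itgb4 (0.547), Ptk2 (0.0557), Lama1 (0.0839), Lamb2 (0.169) and Fermt1 (0.243) no longer passed. Agrn (0.0319), Itga6 (0.0377) and Lamb1 (0.0456) passed there, Agrn and Itga6 as higher and Lamb1 as lower. With the length offset, which called 13.5% of all genes, 10 members rose and 2 fell. Besides Lamc1, Hspg2, Itgb4 and Fermt1 it lost the calls of Ptk2 (0.458), Lamb2 (0.539), Lama1 (0.0830), Itgb1 (0.0522) and Itgb5 (0.0731), of which Itgb5 kept a log2 fold change of -0.36. Limma-trend on log2(TPM + 1) lost each of these as well. Nid1, Nid2, Dag1, Itga3, Itga5, Itga8, Itgb3, Itgb8, Fermt2 and Ilk remained higher with that offset, and Lama4 and Lama5 were lower.

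**Figure D4:**
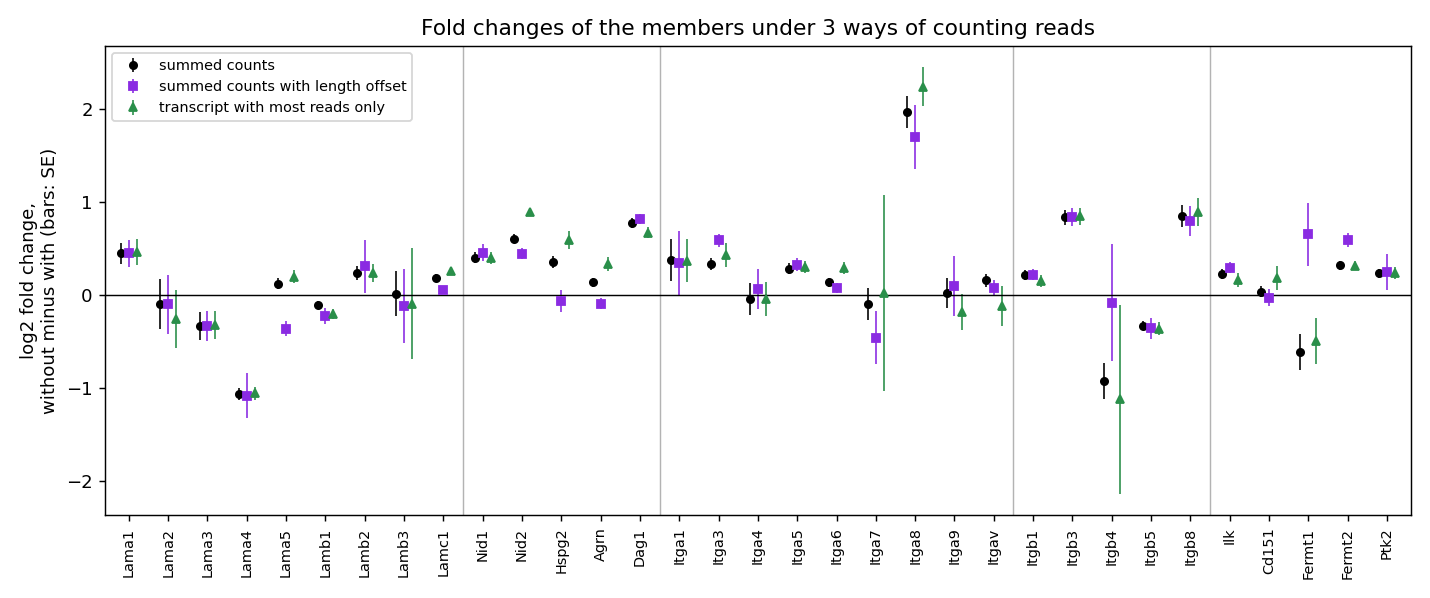
The log2 fold change of each tested member, without minus with Activin A, is shown for summed counts (black), summed counts with a length offset (purple) and the transcript with most reads alone (green), with bars of 1 SE. The points lie close for Lama4, Dag1 and Itgb3, and apart for Lama5, Hspg2, Itgb4 and Fermt1.

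Summed over the chains of a family, the gene TPM of the 5 laminin alpha chains was 104 ± 4.02 with Activin A and 79.8 ± 5.37 without (SD, n = 3 each). Most of this was Lama5, at 93.6 ± 3.29 and 73.7 ± 6.46 TPM, and so rests on the short forms above. The 3 beta chains came to 75.4 ± 10.8 and 75.6 ± 4.32 TPM, and the 2 gamma chains to 67.5 ± 2.88 and 70.7 ± 1.02 TPM, with differences within or near the spread. Lamb1 stood at 42.4 ± 1.92 and 36.7 ± 3.38 TPM and Lamc1 at 67.4 ± 2.88 and 70.7 ± 1.01 TPM, far above Lama1 at 0.737 ± 0.0433 and 1.02 ± 0.148 TPM. The 10 alpha integrins summed to 117 ± 7.06 TPM with Activin A and 149 ± 1.96 TPM without, without overlap, and the 5 beta integrins to 149.8 ± 17.5 and 160.1 ± 7.75 TPM, within the spread. Itgb1 held most of the beta total, at 101 ± 11.1 and 119 ± 8.87 TPM. Itga3 (43.4 ± 2.01 and 65.9 ± 2.85 TPM) and Itga6 (34.1 ± 3.08 and 36.2 ± 1.48 TPM) led the alpha subunits. The Itga3 transcript with most reads, Itga3-201, stood at 26.1 ± 3.38 and 35.5 ± 2.09 TPM. Part of the rise in Itga3 TPM was thus in its other forms. Itga8 was low per length in both groups, at 0.528 ± 0.0367 and 1.77 ± 0.655 TPM.

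Other basement membrane genes moved both ways. Among the 22 tested there were 10 rises, 7 falls and 5 genes with no call, with a median log2 fold change of 0.25. Over all tested genes 29.2% were called, 14% higher and 15.2% lower, and the counts of the further lists below stand beside these shares. Frem2, which encodes a protein of the embryonic basement membrane under the epidermis, measured 81.7, 78.2 and 84.7 CPM with Activin A and 229, 223 and 233 CPM without. It rose by 1.49 (SE 0.05, edgeR adjusted p = 3.51e-11). Col18a1, a basement membrane collagen that carries heparan sulfate, rose by 0.62 (SE 0.05, edgeR adjusted p = 6.33e-07). Fbln2, or fibulin-2, fell by 0.58 (SE 0.07, edgeR adjusted p = 2.78e-05). Under the length offset its log2 fold change was -0.57 and missed the threshold (edgeR adjusted p = 0.0722).

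Other integrin subunits did not pass in edgeR: 0 of 8 tested rose and 0 fell, 1 had an unadjusted p under 0.05, and DESeq2 called 0 of 11. Leaving out replicate 3 with Activin A gave 1 fall among 9 tested, and removal of trends on gene length and GC content gave 1 among 8. Of the tetraspanins and hemidesmosome proteins edgeR likewise called 0 of 7, 3 had an unadjusted p under 0.05, and DESeq2 called 0 of 8. That list gave 1 rise and 1 fall without replicate 3 with Activin A or without both doubted libraries. The same counts came after removal of trends on gene length and GC content, and upper-quartile scaling gave 1 fall.

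Integrin ligands other than laminin split into 5 rises and 6 falls among 12 tested, with a median of -0.12, against 29.2% called over all tested genes. Col1a2 and Col1a1, the chains of collagen I, rose by 0.78 (SE 0.05, edgeR adjusted p = 1.61e-08) and 0.54 (SE 0.07, edgeR adjusted p = 2.07e-05). Ccn2, a matricellular protein also known as CTGF, measured 224, 230.1 and 232 CPM with Activin A and 123, 113 and 115 CPM without. It fell by 0.97 (SE 0.05, edgeR adjusted p = 2.86e-09). Col3a1, a fibrillar collagen, fell by 1.21 (SE 0.07, edgeR adjusted p = 4.17e-09). Col1a1, Col1a2, Col3a1 and Postn of this list are also fibroblast markers.

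Among focal adhesion genes 11 of 26 rose, 4 fell and 11 did not pass, with a median of 0.09, against 29.2% called over all tested genes. The falls numbered 2 without replicate 1 with Activin A or replicate 2 without it. Actn1, the alpha-actinin that crosslinks actin at adhesions, measured 501, 485 and 454 CPM with Activin A and 875, 860.1 and 883 CPM without. It rose by 0.86 (SE 0.05, edgeR adjusted p = 9.14e-09), and Vcl, or vinculin, rose by 0.60 (SE 0.05, edgeR adjusted p = 1.81e-07). Ptk2b, the relative of focal adhesion kinase also called PYK2, fell by 0.65 (SE 0.10, edgeR adjusted p = 0.000264), a call that limma-trend on log2(TPM + 1) did not make (adjusted p = 0.0578). Tns1, or tensin-1, fell by 0.65 (SE 0.11, edgeR adjusted p = 0.000492), and lost its call with the length offset at -0.18 (0.657).

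Around dystroglycan itself, 4 of 18 tested partners and glycosylation enzymes rose, 1 fell and 13 did not pass, with a median of -0.02, a share of calls near the 29.2% of all tested genes. Falls numbered 2 without replicate 3 with Activin A, without both doubted libraries and after removal of trends on gene length and GC content. Sgce, or epsilon-sarcoglycan, rose by 0.62 (SE 0.07, edgeR adjusted p = 8.05e-06). Utrn, or utrophin, rose by 0.43 (SE 0.05, edgeR adjusted p = 2.20e-05). Dmd, or dystrophin, which binds dystroglycan at the same place as utrophin, fell by 0.55 (SE 0.07, edgeR adjusted p = 2.43e-05). Limma-trend on log2(TPM + 1) gave adjusted p-values of 0.0591 for Utrn and 0.0577 for Dmd, and the transcript with most reads alone gave 0.360 for Sgce in edgeR.

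**Figure D5:**
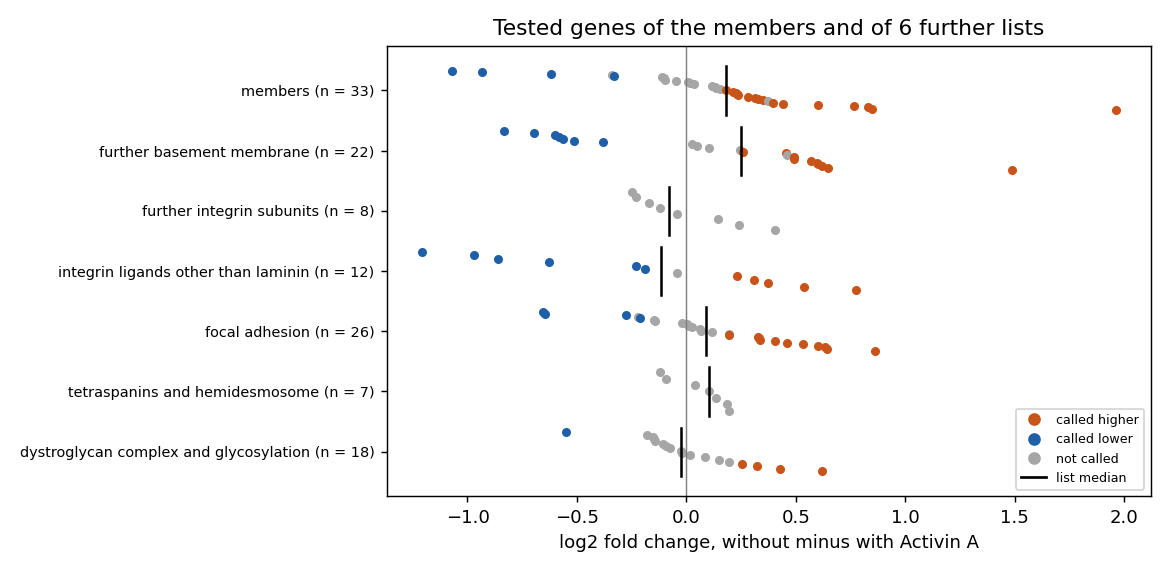
Each point is the edgeR log2 fold change of 1 tested gene, without minus with Activin A, in the member list and in 6 further lists, and the black line is the median of the list. Orange points passed as higher, blue as lower, and grey did not pass. The medians run from -0.12 for integrin ligands other than laminin to 0.25 for the further basement membrane genes, with 0.18 for the members.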

How the data were processed

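The deposited files, with the columns that salmon writes per the file headers, give an estimated count and a TPM for each of 133618 transcripts. Per the submitters' processing notes the tools included salmon. Its version, the build and the annotation were not given in the sources used here. The labels' protocols name a stranded mRNA kit. Transcripts were matched, version ignored, to GENCODE M21 (GRCm38); 219 did not match and were left out. Deposited estimated counts were summed per gene and rounded, and deposited TPM values were summed per gene. Genes were kept by filterByExpr (minimum count 10, total 15), scaled by TMM and tested with edgeR 4.0.16 (R 4.3.3), robust quasi-likelihood F test, two-sided, Benjamini-Hochberg over 15448 genes. SE is the log2 fold change over the square root of F. The test was checked on simulated data. The columns for transcript length and effective length, also deposited by the authors, gave the length offset. Alternatives used limma 3.58.1, DESeq2 1.42.0 and mgcv 1.9.3. Members and gene lists were chosen with earlier results of these data known. Full values were given for called members of at least 1.5-fold and for up to 3 called members per role with the smallest p, and of each further list for up to 2 called genes in each direction; 1 gene that this rule names is not reported here. With 3 against 3 libraries the smallest exact permutation p is 0.1, so none was used. Shared sequence was counted in words of 31 bases.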

Additional observations from a re-analysis of the deposited data

How the results depend on the processing

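Of 33 tested members, 16 rose and 4 fell. RLE and upper-quartile scaling, DESeq2, both other filters, protein-coding genes alone, removal of the trend on GC content and length, and the removal of both doubted libraries kept each count within 1.5 times of these. Leaving out 1 library gave 14 to 19 rises and 3 to 5 falls among members, 3246 to 5689 calls among all genes against 4505, and 27 to 30 rises and 14 to 23 falls in the further lists against 30 and 18. The replicate block gave 16 rises and 4 falls, with 4422 calls in all. Correlations between the groups were of the libraries' departures from their group mean, not of their expression levels. They were -0.0048, -0.0156 and -0.0420 for same-numbered libraries and ran from -0.0290 to 0.0443 for differently numbered ones. Departures within a group are tied to each other, so these values are not independent. They show no likeness by number, but cannot tell whether same-numbered libraries were prepared together. The counts moved by more with limma-trend on log2(TPM + 1), limma-trend on log2(TPM + 0.1) and the length offset, in that order: members gave 10, 9 and 10 rises and 2, 2 and 2 falls, all genes 1559, 1504 and 2086 calls, and the further lists 18, 18 and 19 rises and 3, 2 and 6 falls. The transcript with most reads alone, chosen after seeing the data, gave 1895 calls in all and 8 falls in the further lists.

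The log2 fold change turned in those same 3 settings, in the same order, for Lama5 (-0.34, -0.35, -0.37), Lamb3 (-0.12, -0.13, -0.12), Hspg2 (-0.044, -0.046, -0.072), Agrn (-0.075, -0.077, -0.096), Itga4 (0.018, 0.063, 0.064), Cd151 (-0.016, -0.016, -0.032) and Fermt1 (0.27, 0.54, 0.65), and in both limma settings for Itgb4 (0.046, 0.12). Of these, Lama5 alone passed where it turned. With the transcript of most reads alone it turned for Lamb3 (-0.10), Itga7 (0.015), Itga9 (-0.19) and Itgav (-0.12), and with upper-quartile scaling for Lamb3 (-0.023) and Itga9 (-0.018). Lamb3 was -0.0095 with the replicate block. Without both doubted libraries Itga4 was 0.034, Itga9 -0.082 and Cd151 -0.021. Over fits that each left out 1 library the value ran from -0.24 to 0.090 for Lama2, -0.14 to 0.12 for Lamb3, -0.11 to 0.00033 for Itga4, -0.22 to 0.043 for Itga7, -0.12 to 0.15 for Itga9 and -0.0040 to 0.080 for Cd151. The share of Fermt1-201 in its gene rose by 6.39 percentage points in reads and fell in TPM. The cause of each turn was not tested.

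With 3 libraries a group, members under 10 CPM gave wide errors, and for Lamc3 and Itga2 the depth allows no statement.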
